A study of Mus musculus with 12 samples.

Results

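The fat pad beside the testis, epididymal white adipose tissue (eWAT), was compared by RNA-seq between mice killed at day 7 after 70% of the liver was removed and mice that had a sham operation. The libraries were chosen by their labelled surgery and day: 3 day 7 and 4 sham libraries, 7 of the 12 in the series. The sham mice had a laparotomy with the liver left whole; the day 7 mice had a 70% partial hepatectomy. All were labelled as male mice of 12 to 14 weeks, of strain C57bl6 by the sample labels, or C57BL6/J by the design text, with no other allele or agent named for either group. The labels do not say on which day the sham mice were killed, and their source field places them before hepatectomy. Each library came from 1 mouse, so the spread between libraries joins variation between animals with that of preparation. The other 5 libraries, from day 3 after hepatectomy, entered the tests through the shared estimate of spread, the filter on low counts and the scaling between libraries.

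White fat stores triglyceride in adipocytes, which take up fatty acids from lipoproteins, make some from glucose by de novo lipogenesis, and release them by lipolysis. In that synthesis, citrate leaves the mitochondrion and is split by ATP citrate lyase (Acly) into acetyl-CoA, which acetyl-CoA carboxylase (Acaca) and fatty acid synthase (Fasn) build into palmitate at the cost of NADPH. Around the adipocytes lie macrophages, progenitors, vessels and an outer sheet of mesothelium. After partial hepatectomy the remaining liver regrows, and fat depots are a source of its fuel.

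The sham libraries held 16368077 to 23474246 counts and the day 7 libraries 15229197 to 16041931, and 17012 genes passed the filter on low counts. Levels are CPM, counts relative to library size after scaling between libraries by TMM, and differences are log2 of day 7 over sham, fitted by edgeR, with standard errors (SE). Adipocyte markers were present in every library, with Fabp4, the main fatty acid binding protein gene of fat cells, at 9344 to 10249 CPM in sham and 5804 to 11444 CPM at day 7. Their levels were not equal between libraries. The adiponectin gene Adipoq stood at 1595 to 4227 CPM in sham and 328 to 3523 CPM at day 7. Day 7 library 1 was the lowest in Adipoq and the highest in Fabp4. Markers of epididymis and testis, the organs beside the pad, were not among the genes that passed the filter (0 of 20). Hepatocyte transcripts were uneven within groups: Alb, the albumin gene, stood at 1.78, 2.797, 5.99 and 2315 CPM in sham and at 24.6, 192 and 1.58 CPM at day 7. Mitochondrially encoded genes took 4.10%, 4.89%, 5.17% and 6.56% of the counts in sham libraries 1 to 4 and 4.06%, 9.05% and 5.81% in day 7 libraries 1 to 3. Day 3 library 1 held 340.2 CPM of Xist before scaling, against at most 1.66 CPM in the other 11 libraries, although labelled male. Results without it and without sham library 4 are given after the report. In bulk tissue, fewer cells of a type and less RNA per cell cannot be told apart.

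The 3 day 7 mice differed from one another about as much as from sham. Across all 12 libraries edgeR called 0 of 17012 genes between day 7 and sham at an adjusted p under 0.05 (0% of genes tested), with 1065 genes (6.26%) at an unadjusted p under 0.05, of which 597 (3.51%) were higher and 468 (2.75%) lower. DESeq2 on the same counts called 70 genes (0.538% of the 13008 with an adjusted p), 35 higher (0.269%) and 35 lower (0.269%). Limma voom with sample weights called 15 (0.0882%), 6 higher (0.0353%) and 9 lower (0.0529%). All 3 day 7 libraries lay above all 4 sham libraries in 482 genes (2.83%) and below them in 692 genes (4.07%). Scaled by total count alone, these were 268 and 1067 genes, and with any 1 sham or day 7 library left out, which leaves fewer values to clear, 703 to 1576 above and 905 to 1561 below. The authors' deposited table gives 50 genes with a step-up FDR under 0.05 for day 7 against sham, 30 higher and 20 lower.

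Mouse 1 stood furthest from sham. Its mean correlation with the 4 sham libraries, across genes on log2 CPM, was 0.864, against 0.916 for mouse 2 and 0.918 for mouse 3; genes are not independent replicates. The sham libraries correlated with one another at 0.876 to 0.929. Among all 12 libraries, mouse 1 was nearest to day 3 library 2 (0.936), mouse 2 to day 3 library 5 (0.957) and mouse 3 to sham library 2 (0.944). Counting genes at least 1 log2 unit above the highest sham library gave 890 genes (5.23%) in mouse 1, 300 genes (1.76%) in mouse 2 and 297 genes (1.75%) in mouse 3. At least 1 log2 unit below the lowest sham library lay 1478 genes (8.69%), 401 genes (2.36%) and 416 genes (2.45%). Few genes were shared: 17 lay above in all 3 mice and 35 below in all 3. Mice 2 and 3 shared 72 genes above, 24.0% of the genes of mouse 2 and 24.2% of those of mouse 3, while 760 of the genes of mouse 1 (85.4%) were above in mouse 1 alone. Below, 1278 of the genes of mouse 1 (86.5%) were below in mouse 1 alone, and mice 2 and 3 shared 116 genes, 28.9% and 27.9% of theirs.

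**Figure D1:**
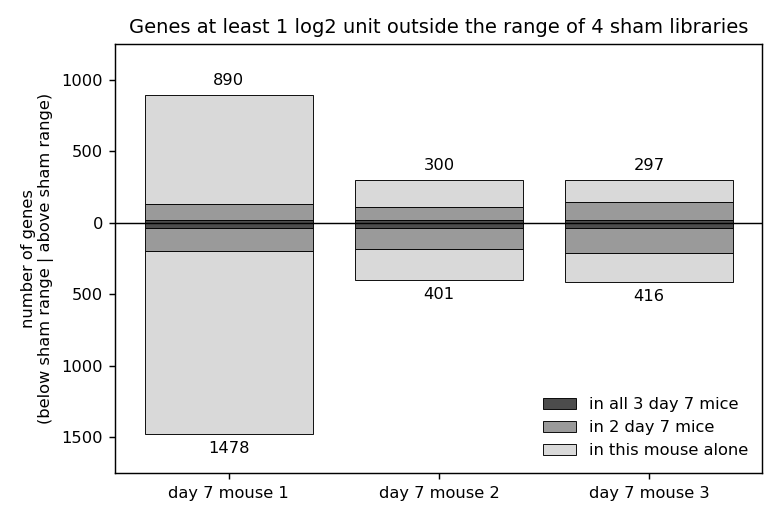
Number of genes at least 1 log2 unit above the highest (positive bars) or below the lowest (negative bars) of the 4 sham libraries, for each day 7 library, split by how many of the 3 day 7 libraries share the gene. Mouse 1 has 890 genes above and 1478 below, most of them in mouse 1 alone.

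Fras1, Cgn and Ppl stood lower than every sham mouse in all 3 day 7 mice, and most listed mesothelial genes had negative log2 differences, with lower list scores in mice 2 and 3 than in mouse 1. The gene with the smallest p was Fras1 (ENSMUSG00000034687), which encodes a basement membrane protein that holds epithelium to the tissue under it, on chromosome 5 between 96521814 and 96932588, plus strand, build mm39. Fras1 stood at 11.9, 19.01, 18.3 and 21.8 CPM in sham libraries 1 to 4 and at 3.02, 4.496 and 4.07 CPM in day 7 libraries 1 to 3. All 3 day 7 mice were low and the groups did not overlap: the level was 17.7 ± 4.18 CPM (SD, n = 4) over the sham mice and 3.86 ± 0.757 CPM (SD, n = 3) over those of day 7, a log2 difference of -2.20 (SE 0.331), with an edgeR adjusted p of 0.284 that missed the threshold. Cgn, which encodes cingulin of tight junctions, stood at 30.6, 22.01, 25.9 and 26.3 CPM in sham and at 8.95, 5.09 and 3.87 CPM at day 7. The periplakin gene Ppl, which links junctions to keratin filaments, stood at 91.4, 65.9, 87.3 and 99.1 CPM in sham and at 53.9, 27.04 and 25.4 CPM at day 7. In both genes mouse 1 was the highest of the day 7 mice, still below every sham mouse, and the log2 differences were -2.13 (SE 0.389) and -1.28 (SE 0.263), with edgeR adjusted p of 0.307 and 0.493. Without mouse 1, edgeR called Ppl lower, with a log2 difference of -1.69 and an adjusted p of 0.0322. Other basement membrane genes differed less. Of the 27 genes listed for the basement membrane and the Fras1 complex 23 were tested, and 8 had positive and 15 had negative log2 differences, with a median of -0.23, beside 0.0069 over all genes tested, of which 50.7% were positive and 49.3% negative. At an unadjusted p under 0.05, 5 of them were lower and 0 higher: Fras1, the collagen IV chains Col4a6 (log2 difference -1.17, SE 0.3301) and Col4a5 (-0.80, SE 0.313), the heparan sulfate proteoglycan gene Agrn (-0.70, SE 0.252) and nidogen 2, Nid2 (-0.79, SE 0.354). Over all genes tested, 2.75% were lower and 3.51% higher at that p.

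The mesothelium is the single cell layer that covers the fat pad. All 19 listed mesothelial genes were tested, of which 2 had positive and 17 had negative log2 differences, with a median of -1.14. At an unadjusted p under 0.05, 11 were lower and 0 higher, and 8 lay below every sham library in all 3 mice. Over all genes tested, 2.75% were lower and 3.51% higher at that p, and 4.07% lay below every sham library. No member passed edgeR, and DESeq2 called 3 of them, Upk3b, Nkain4 and Gpm6a, lower, beside 0.269% of all genes with an adjusted p. Upk3b, a uroplakin that marks mesothelium, stood at 313, 390.4, 318 and 520.4 CPM in sham libraries 1 to 4 and at 229, 78.9 and 90.4 CPM in day 7 libraries 1 to 3. Mouse 1 lay under the lowest sham mouse, and mice 2 and 3 further under it (log2 difference -1.54, SE 0.3599, edgeR adjusted p 0.564). Without mouse 1, edgeR called Upk3b lower (log2 difference -2.17, adjusted p 0.0336). The transcription factor gene Wt1 stood at 106, 46.3, 56.98 and 87.7 CPM in sham and at 43.7, 32.004 and 23.5 CPM at day 7, with all 3 mice under the sham range and mouse 1 just under it. Msln, which encodes mesothelin, differed between mice: it stood at 136, 186, 117 and 163 CPM in sham and at 244, 31.9 and 65.8 CPM at day 7, above the sham range in mouse 1 and below it in mice 2 and 3 (log2 difference -0.40, SE 0.527, and 0.043 without mouse 2). The antiprotease gene Slpi and the keratin gene Krt18 split in the same way, Slpi at 267, 339, 334 and 299 CPM in sham and at 575, 175 and 136 CPM at day 7. Krt18 stood at 40.4, 24.8, 17.2 and 26.2 CPM in sham and at 65.3, 12.8 and 13.9 CPM at day 7. Over the whole list the median deviation from the sham mean, in log2 CPM, was -0.43, -1.89 and -1.65 in day 7 libraries 1 to 3, against -0.34 to 0.26 in the sham libraries. Their summed level before scaling was 2561, 2425, 1969.8 and 2553 CPM in sham libraries 1 to 4 and 2059.7, 738 and 793 CPM in day 7 libraries 1 to 3. By gene, 11 members lay at least 1 log2 unit below the sham range in mouse 2, 7 in mouse 3 and 1 in mouse 1. Over all genes tested these shares were 2.36%, 2.45% and 8.69%.

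Several other genes were low in all 3 mice. Nnat, which encodes the membrane proteolipid neuronatin, stood at 415, 393, 613 and 662 CPM in sham and at 3.72, 113 and 92.3 CPM at day 7, far under the sham range in all 3 mice and lowest in mouse 1 (log2 difference -2.90, SE 1.33). Sfrp5, a secreted Wnt antagonist made by fat cells, stood at 22.6, 53.9, 15.8 and 20.3 CPM in sham and at 1.32, 3.57 and 1.31 CPM at day 7 (log2 difference -3.76, SE 0.978). All day 7 mice lay under every sham mouse in both genes, with edgeR adjusted p of 0.796 and 0.564. The mesenchymal cadherin gene Cdh11 stood at 75.4, 58.2, 63.2 and 106 CPM in sham and at 20.4, 27.8 and 17.9 CPM at day 7. The matrix gene Prelp, a leucine-rich proteoglycan, stood at 499, 873, 397 and 455 CPM in sham and at 77.4, 192 and 172 CPM at day 7. Both lay clear of the sham range in every mouse. Igfbp6, which binds IGF2, stood at 322, 168, 239 and 412 CPM in sham and at 159, 76.5 and 95.03 CPM at day 7. Pck1, which encodes an enzyme early on a route to glycerol 3-phosphate for triglyceride in fat, stood at 1917, 5161, 3627 and 2314 CPM in sham and at 695, 1799.9 and 341 CPM at day 7. The 4 genes lay under the sham range in every mouse, with log2 differences of -1.78 (SE 0.393), -1.92 (SE 0.484), -1.37 (SE 0.339) and -1.78 (SE 0.548) and edgeR adjusted p of 0.564 to 0.632. The carboxylesterase gene Ces2g stood at 27.5, 28.6, 21.9 and 31.5 CPM in sham and at 13.9, 14.5 and 13.5 CPM at day 7. Synpo2, an actin-bundling protein gene, stood at 167, 164, 81.2 and 93.3 CPM in sham and at 28.8, 38.02 and 41.1 CPM at day 7. Both were low in all 3 mice, within a narrow band in Ces2g. The serotonin transporter gene Slc6a4 stood at 24.95, 9.74, 11.5 and 6.91 CPM in sham and at 3.09, 2.84 and 0.459 CPM at day 7. Cybrd1, a ferric reductase gene, stood at 18.04, 25.4, 32.98 and 48.5 CPM in sham and at 11.4, 4.69 and 9.06 CPM at day 7. Trarg1, which encodes a partner of the insulin-regulated glucose transporter, stood at 306, 432, 320.2 and 358 CPM in sham and at 198, 202 and 111 CPM at day 7. In each of these 3 genes the highest day 7 mouse lay under the lowest sham mouse.

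**Figure D2:**
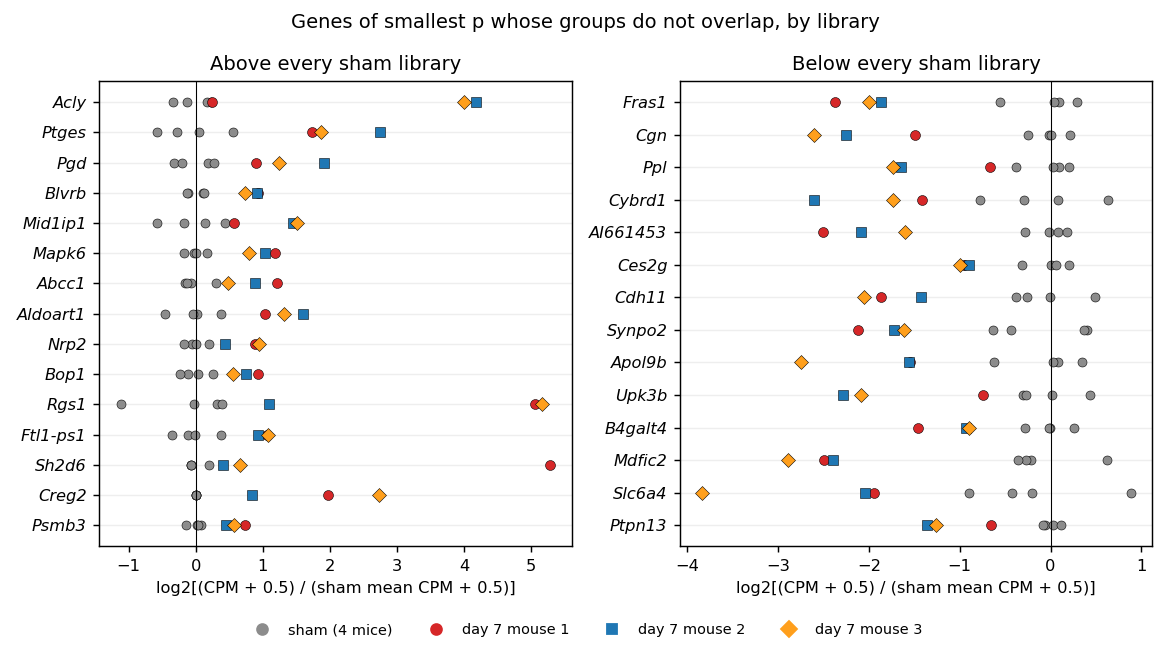
Level of genes of smallest p among those whose groups do not overlap (15 above and 14 below sham), in each library, as log2 of (CPM + 0.5) over the sham mean plus 0.5 (horizontal axis); grey points are the 4 sham libraries and coloured points the 3 day 7 libraries. Fras1 shows the 3 day 7 mice at 3.02 to 4.50 CPM, clear of the sham mice at 11.9 to 21.8 CPM.

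Ptges, Pgd and 5 proteasome subunit genes were among the genes above every sham mouse in all 3 day 7 mice, none past the threshold in edgeR. Ptges (ENSMUSG00000050737) encodes the inducible synthase of prostaglandin E2 and lies on chromosome 2 between 30779483 and 30819876, minus strand, build mm39. It stood at 50.97, 35.9, 22.9 and 28.4 CPM in sham libraries 1 to 4 and at 116, 235 and 127 CPM in day 7 libraries 1 to 3. All 3 mice lay above the highest sham mouse, and mouse 2 was highest; the log2 difference was 2.20 (SE 0.392) and the edgeR adjusted p 0.307. Other prostaglandin genes did not show that pattern as a group. Of 20 tested, 13 had positive and 7 had negative log2 differences, with a median of 0.17, and the other member at an unadjusted p under 0.05 was Hpgds. This gene, for the haematopoietic prostaglandin D synthase, stood at 8.47, 10.8, 4.73 and 7.53 CPM in sham and at 9.96, 6.41 and 48.1 CPM at day 7, high in mouse 3 alone. The cyclooxygenase gene Ptgs2 stood at 17.01, 4.45, 3.53 and 2.01 CPM in sham and at 66.1, 4.17 and 1.51 CPM at day 7, above the sham range in mouse 1 and below it in mouse 3.

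Pgd, 6-phosphogluconate dehydrogenase of the pentose phosphate pathway, stood at 229.9, 244, 161 and 176 CPM in sham libraries 1 to 4 and at 377, 765 and 482 CPM in day 7 libraries 1 to 3. Every day 7 mouse was above every sham mouse, mouse 2 most (log2 difference 1.42, SE 0.255, edgeR adjusted p 0.307). The transaldolase gene Taldo1 of the same pathway stood at 189.5, 246, 307 and 308 CPM in sham and at 389.9, 521 and 467 CPM at day 7 (log2 difference 0.81, SE 0.227). G6pdx, the entry enzyme of that pathway, stood at 204, 451, 151 and 156 CPM in sham and at 249.8, 279 and 282 CPM at day 7, inside the sham range in all 3 mice. Gpd1, which reduces glycolytic dihydroxyacetone phosphate to the glycerol backbone of triglyceride, stood at 484, 523, 686 and 717 CPM in sham and at 901, 2253 and 1881 CPM at day 7 (log2 difference 1.48, SE 0.392). Of 21 glycolysis and glucose uptake genes, 17 had positive and 4 had negative log2 differences, with a median of 0.47. At an unadjusted p under 0.05, 6 were higher and 0 lower, and 5 lay above sham in every mouse. Over all genes tested, 3.51% were higher and 2.75% lower at that p, and 2.83% lay above sham in every mouse. Aldoa, for aldolase A, stood at 624, 731, 1032 and 812 CPM in sham and at 1123, 1686 and 1621 CPM at day 7. Ldha, for lactate dehydrogenase A, stood at 836, 543, 552 and 536 CPM in sham and at 932, 1258 and 1002 CPM at day 7. Hk2, for hexokinase 2, stood at 65.4, 90.2, 65.5 and 93.5 CPM in sham and at 119, 122 and 136 CPM at day 7. All 3 were among those 5, and Aldoa has retrocopies of near-identical sequence, so the split of its reads is uncertain. The glucose transporters differed between mice. Slc2a1, the basal transporter GLUT1, stood at 21.001, 20.4, 11.9 and 8.93 CPM in sham and at 315, 22.3 and 27.7 CPM at day 7. Slc2a4, the insulin-responsive GLUT4, stood at 89.7, 107, 119 and 162 CPM in sham and at 4.54, 201 and 216 CPM at day 7. Mouse 1 was high in Slc2a1 and low in Slc2a4, while mice 2 and 3 lay above the sham range in both.

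The 5 proteasome subunit genes described here were chosen by their small p. Of all 38 tested genes with a Psma, Psmb, Psmc or Psmd symbol, a set read after these values were seen, 32 had positive and 6 negative log2 differences (median 0.36), and in 21 every day 7 mouse lay above every sham mouse, a pattern of 2.83% of all genes tested. Psmb5, a catalytic subunit, stood at 57.1, 54.4, 45.97 and 50.4 CPM in sham and at 108, 88.5 and 75.9 CPM at day 7. Psmb3 stood at 57.5, 59.6, 58.1 and 51.3 CPM in sham and at 94.02, 77.6 and 84.3 CPM at day 7. The regulatory subunit Psmd1 stood at 68.7, 90.01, 71.2 and 92.98 CPM in sham and at 112, 149.6 and 129.8 CPM at day 7. In these 3 genes, and in Psma1 and Psmc4, every day 7 mouse lay above every sham mouse; the log2 differences were 0.81 (SE 0.206), 0.59 (SE 0.1504), 0.69 (SE 0.191), 0.49 (SE 0.161) and 0.49 (SE 0.221), with edgeR adjusted p of 0.564 to 0.789. Psmb3 is not on the list of ubiquitin ligases and atrophy genes, of whose 20 tested members 13 had positive log2 differences (median 0.21). The list's atrophy ligase Fbxo32 stood at 14.7, 22.7, 29.3 and 30.8 CPM in sham and at 18.5, 25.6 and 20.7 CPM at day 7, within the sham range. Other genes with small p were above sham in all 3 mice as well. Mapk6, an atypical MAP kinase gene, stood at 126, 114, 144 and 128 CPM in sham and at 291, 262 and 223 CPM at day 7. The biliverdin reductase gene Blvrb stood at 37.9, 32.2, 38.1 and 31.99 CPM in sham and at 67.1, 66.1 and 58.9 CPM at day 7. The glutathione conjugate exporter gene Abcc1 stood at 55.2, 58.5, 56.5 and 76.3 CPM in sham and at 143, 114 and 86.2 CPM at day 7. With Bop1, of ribosome assembly, their log2 differences were 1.02 (SE 0.211), 0.87 (SE 0.174), 0.89 (SE 0.193) and 0.77 (SE 0.179). The ferritin light chain gene Ftl1 stood at 1648, 1279, 2053 and 1618 CPM in sham and at 3298, 2861 and 3133 CPM at day 7 (log2 difference 0.91, SE 0.262); pseudogene copies share its sequence, so its level is uncertain. Rgs1, a regulator of G protein signalling in leukocytes, stood at 0.987, 0.673, 1.08 and 0.0516 CPM in sham and at 39.4, 2.05 and 42.4 CPM at day 7, just above sham in mouse 2 and far above it in mice 1 and 3. Nampt, of NAD salvage, stood at 76.8, 82.9, 152 and 114 CPM in sham and at 158, 178 and 227 CPM at day 7. The semaphorin and VEGF-C receptor gene Nrp2 stood at 52.3, 62.1, 48.001 and 54.1 CPM in sham and at 100.005, 73.7 and 105 CPM at day 7, above sham in all 3 mice, as Nampt was. Srxn1 and Prdx1, antioxidant enzymes named here after their values were seen, were among the 35 genes that DESeq2 called higher. Srxn1 stood at 68.5, 55.1, 38.7 and 33.95 CPM in sham and at 555, 92.04 and 77.7 CPM at day 7. Prdx1 stood at 394, 369, 468 and 455 CPM in sham and at 941, 688 and 635 CPM at day 7. Mouse 1 was highest in both, and all 3 mice lay above sham.

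De novo lipogenesis set mice 2 and 3 apart from both sham and mouse 1. The promoters of 3 genes that lead this pattern are shown so that their sequence can be set beside their levels; the bases are RefSeq's on build GRCm38.p6, the 250 before the transcription start, written in the direction of the gene. Capitals mark matches on either strand to the GC box (GGGCGG) and the CCAAT box (CCAAT), which share no base with each other here; in Fasn, matches to CCAAT on opposite strands share bases in the run CCAATTGG; the E-box CACGTG was searched as well and matched none of the 3. Acly is shown from chr11:100528001-100528250 (minus strand), Fasn from chr11:120824548-120824797 (minus strand) and Elovl6, the elongase of palmitate, from chr3:129532136-129532385 (plus strand).
Acly: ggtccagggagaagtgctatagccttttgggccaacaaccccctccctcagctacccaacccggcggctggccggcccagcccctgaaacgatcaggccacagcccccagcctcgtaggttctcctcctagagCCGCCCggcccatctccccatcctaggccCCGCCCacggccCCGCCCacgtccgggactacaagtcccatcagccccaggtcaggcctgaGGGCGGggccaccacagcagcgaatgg
Fasn: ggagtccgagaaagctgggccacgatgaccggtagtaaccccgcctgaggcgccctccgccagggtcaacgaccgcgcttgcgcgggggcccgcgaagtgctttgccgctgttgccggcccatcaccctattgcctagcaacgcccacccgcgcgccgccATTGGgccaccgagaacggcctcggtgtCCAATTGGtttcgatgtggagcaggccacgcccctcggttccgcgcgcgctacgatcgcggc
Elovl6: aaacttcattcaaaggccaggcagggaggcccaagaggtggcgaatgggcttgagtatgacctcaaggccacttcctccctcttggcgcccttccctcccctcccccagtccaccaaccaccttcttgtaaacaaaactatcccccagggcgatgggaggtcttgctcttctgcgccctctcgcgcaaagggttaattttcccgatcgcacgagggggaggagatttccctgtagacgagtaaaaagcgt
The Acly window held 4 GC boxes, the Fasn window 3 CCAAT boxes and the Elovl6 window none of the motifs searched. Over all 32851 promoter windows of this length, 32.7% held a GC box, 33.8% a CCAAT box and 6.02% the E-box. Of the 15 listed fatty acid synthesis genes 10 matched the table, with 11 windows, of which 6 held a GC box, 6 a CCAAT box and 2 the E-box.

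Acly (ENSMUSG00000020917) stood at 99.1, 146, 114 and 141 CPM in sham libraries 1 to 4 and at 147, 2256 and 2009 CPM in day 7 libraries 1 to 3. Mouse 1 lay just above the highest sham mouse, and mice 2 and 3 far above it; the log2 difference was 3.56 (SE 0.616), with an edgeR adjusted p of 0.307 over all mice. Without mouse 1 it was 4.12, with an edgeR adjusted p of 9.19e-06, the smallest of the 3 genes called in that setting. Fasn (ENSMUSG00000025153) stood at 190.4, 357, 474 and 826 CPM in sham libraries 1 to 4 and at 115, 11608 and 10168 CPM in day 7 libraries 1 to 3. Mouse 1 was below every sham mouse and mice 2 and 3 were above every one of them by over 1 log2 unit, so the log2 difference of 3.98 (SE 1.3005) carried an edgeR adjusted p of 0.719. Elovl6 stood at 27.5, 13.5, 6.04 and 9.34 CPM in sham and at 19.7, 86.6 and 106 CPM at day 7, with mouse 1 inside the sham range (log2 difference 2.32, SE 0.5503, edgeR adjusted p 0.564). Acaca stood at 253, 456, 309.9 and 381 CPM in sham and at 113, 1504 and 1226 CPM at day 7, low in mouse 1 and high in the other mice. The mitochondrial citrate carrier gene Slc25a1 stood at 117, 107, 247 and 262 CPM in sham and at 59.2, 1026 and 606 CPM at day 7. Acss2, which makes acetyl-CoA from acetate, stood at 24.5, 40.1, 43.1 and 49.1 CPM in sham and at 18.4, 272 and 130.3 CPM at day 7. Both had the order of Fasn, with mouse 1 below the sham range and mouse 2 highest. Scd1, the main desaturase gene of white fat, overlapped sham at 2481, 6205, 7470.3 and 12345 CPM in sham and at 5231, 14279 and 9789.95 CPM at day 7. Mouse 2 was just over the sham range there. Its relative Scd2 stood at 89.7, 105, 50.6 and 73.6 CPM in sham and at 21.1, 540.4 and 196 CPM at day 7, below sham in mouse 1 and above it in the others. Over the 15 fatty acid synthesis genes, 12 had positive and 3 had negative log2 differences, with a median of 1.44 (0.76 for differences of mean log2 CPM). At an unadjusted p under 0.05, 6 were higher and 0 lower, beside 3.51% and 2.75% of all genes tested. The list's deviation from the sham mean, in log2 CPM, was -0.91, 1.88 and 1.34 in day 7 libraries 1 to 3, against -0.40 to 0.19 in sham. At least 1 log2 unit above the sham range lay 7 members in mouse 2, 7 in mouse 3 and 1 in mouse 1. Over all genes tested these shares were 1.76%, 1.75% and 5.23%.

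**Figure D3:**
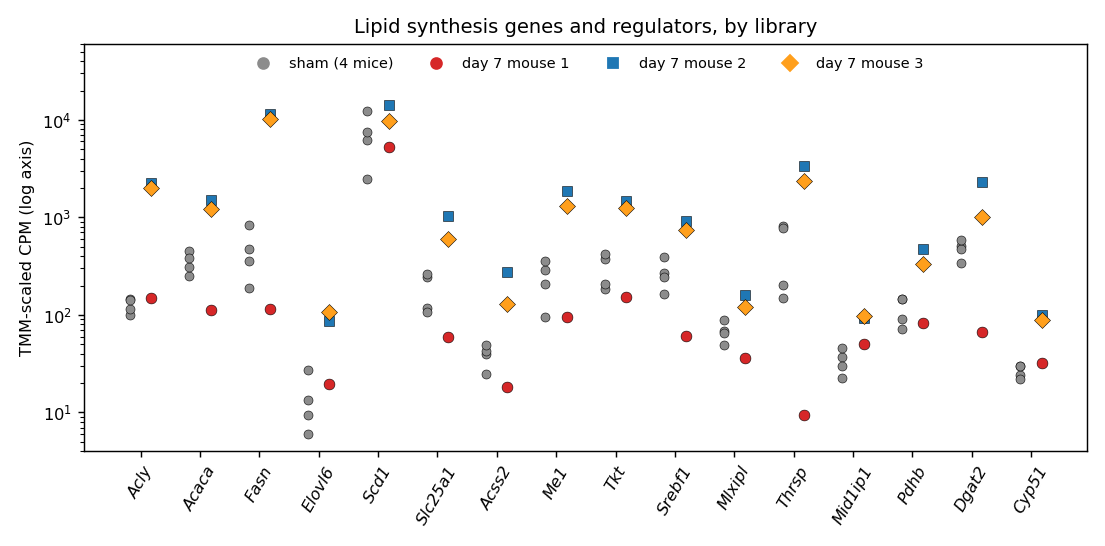
CPM (logarithmic axis) of lipid synthesis genes and regulators in each library; grey points are the 4 sham libraries and coloured points day 7 libraries 1 to 3. For Fasn, mice 2 and 3 stand above the sham range of 190 to 826 CPM and mouse 1 below it.

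Some regulators and suppliers of the pathway had the same order of mice. As a list the regulators overlapped sham: of 14 tested, 11 had positive and 3 had negative log2 differences, with a median of 0.33, and the scores were 0.12, 0.31 and 0.18 in day 7 libraries 1 to 3, against -0.25 to 0.18 in sham. Mouse 1 lay inside that range and mouse 3 at its upper edge. Thrsp, a lipogenic nuclear protein gene, stood at 149, 203, 807 and 783 CPM in sham and at 9.39, 3394 and 2359 CPM at day 7, with the widest spread among the regulators. Its partner gene Mid1ip1 stood at 37.1, 29.7, 22.4 and 45.5 CPM in sham and at 50.4, 92.97 and 96.3 CPM at day 7, above sham in all 3 mice (log2 difference 1.25, SE 0.258, edgeR adjusted p 0.493). Mouse 1 was under the sham range in Thrsp and over it in Mid1ip1. Srebf1, the sterol-regulated transcription factor of lipogenesis, stood at 165, 266, 246 and 397 CPM in sham and at 61.3, 913 and 738 CPM at day 7. Mlxipl, the carbohydrate-sensing factor ChREBP, stood at 48.6, 68.1, 89.4 and 64.96 CPM in sham and at 35.9, 159 and 119.9 CPM at day 7. For both, mouse 1 lay below the sham range and mice 2 and 3 above it. Among NADPH suppliers, malic enzyme Me1 stood at 95.9, 207, 292 and 356 CPM in sham and at 95.4, 1863 and 1307 CPM at day 7. Transketolase Tkt stood at 186, 205, 370.5 and 423 CPM in sham and at 152, 1486 and 1256 CPM at day 7. In each, mouse 1 lay under the lowest sham mouse and mice 2 and 3 over the highest. Over the 12 NADPH genes, 9 had positive and 3 had negative log2 differences, with a median of 0.41. The order was alike in pyruvate supply. The pyruvate dehydrogenase subunit Pdhb stood at 72.2, 90.9, 144 and 145 CPM in sham and at 82.4, 479.5 and 332 CPM at day 7. Pyruvate carboxylase, Pcx, stood at 286, 686, 1344 and 1233 CPM in sham and at 279, 2209 and 2006 CPM at day 7. Over the 23 genes of pyruvate entry and the TCA cycle, 20 had positive and 3 had negative log2 differences, with a median of 0.47. The scores were -0.69, 1.00 and 0.68 in day 7 libraries 1 to 3, against -0.57 to 0.37 in sham. Pdk4, which encodes an inhibitory kinase of pyruvate dehydrogenase, stood at 60.3, 203, 181 and 86.7 CPM in sham and at 1709.97, 123 and 75.3 CPM at day 7, high in mouse 1 alone.

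Cholesterol synthesis genes were higher mainly in mouse 2. Of 22 tested, 17 had positive and 5 had negative log2 differences, with a median of 0.47. At an unadjusted p under 0.05, 6 were higher and 0 lower, beside 3.51% and 2.75% of all genes tested. Cyp51, the lanosterol demethylase, stood at 30.2, 24.1, 21.8 and 29.8 CPM in sham and at 31.9, 100.05 and 87.9 CPM at day 7 (log2 difference 1.47, SE 0.376). Nsdhl stood at 9.99, 16.5, 10.2 and 9.65 CPM in sham and at 8.13, 50.9 and 34.1 CPM at day 7. Mouse 1 lay just above the sham range in Cyp51 and below it in Nsdhl. The list's scores were -0.30, 1.02 and 0.27 in day 7 libraries 1 to 3, against -0.26 to 0.19 in sham. Triglyceride assembly genes, 11 of 15 of them positive (median 0.11), scored -0.61, 0.48 and 0.26 in day 7 libraries 1 to 3, against -0.29 to 0.21 in sham. Mouse 1 lay below that range, and mice 2 and 3 above it. Dgat2, the terminal acyltransferase of lipogenesis, stood at 344, 513, 477 and 588 CPM in sham and at 66.3, 2324 and 997 CPM at day 7. Pnpla3, a lipogenic lipid droplet protein, stood at 9.19, 32.5, 59.1 and 65.4 CPM in sham and at 0, 280.3 and 82.6 CPM at day 7. Mouse 2 was highest in both, and mouse 1 had 0 counts of Pnpla3.

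In several adipocyte identity and lipolysis genes mouse 1 was low and stood apart from mice 2 and 3. The adipocyte marker Fabp4 went the other way. It stood at 11444 CPM in mouse 1, above the sham range of 9344 to 10249 CPM. Mice 2 and 3 lay below that range, at 6895 and 5804 CPM. Adipoq, which encodes adiponectin, stood at 1595, 2103, 3967 and 4227 CPM in sham libraries 1 to 4 and at 328, 3523 and 2028 CPM in day 7 libraries 1 to 3. Mice 2 and 3 lay within the sham range and mouse 1 far under it, so the log2 difference was -0.60 (SE 0.737) with an edgeR adjusted p of 0.931. The leptin gene Lep stood at 222, 707, 134 and 275 CPM in sham and at 15.6, 172 and 403 CPM at day 7. Cebpa stood at 846, 554, 898 and 961 CPM in sham and at 167, 1077 and 796 CPM at day 7. Pparg stood at 126, 196, 167 and 237 CPM in sham and at 74.5, 219 and 221 CPM at day 7; mouse 1 was lowest in all 3 and the log2 differences were -0.77 (SE 0.867), -0.26 (SE 0.619) and -0.082 (SE 0.344). Without mouse 1 the differences of Cebpa and Pparg had the other sign, 0.23 and 0.30. The adipose triglyceride lipase gene Pnpla2 stood at 1799.6, 3449.7, 3992 and 2634 CPM in sham and at 2804, 2291 and 2577 CPM at day 7. The hormone-sensitive lipase gene Lipe stood at 979, 1358, 1715 and 1454 CPM in sham and at 429, 1658 and 1016 CPM at day 7. Pnpla2 lay inside the sham range in every mouse (log2 difference -0.22, SE 0.319), and Lipe lay outside it in mouse 1 alone (-0.41, SE 0.428). The beta-adrenergic receptor gene Adrb3 stood at 338, 465, 756 and 704 CPM in sham and at 19.98, 807 and 285 CPM at day 7. The glycerol channel gene Aqp7 stood at 103, 135, 108 and 141 CPM in sham and at 4.47, 102 and 35.9 CPM at day 7. Both were lowest in mouse 1; Aqp7 lay under the sham range in all 3 mice, mouse 2 by a narrow margin. Over the 25 identity genes, 9 had positive and 16 had negative log2 differences, with a median of -0.15, and over the 24 lipolysis and droplet genes tested, 6 had positive and 18 had negative log2 differences, with a median of -0.22. The identity scores were -0.93, 0.43 and -0.19 in day 7 libraries 1 to 3, against -0.31 to 0.26 in sham. Branched-chain amino acid breakdown genes had the same order, with scores of -0.98, 0.68 and 0.22 in day 7 libraries 1 to 3. The sham scores ran from -0.85 to 0.55, so mouse 3 lay within that range. Oxidative phosphorylation subunits had that order as well (-0.51, 0.67 and 0.47 in day 7 libraries 1 to 3, against -0.27 to 0.35 in sham). Of these, 32 of 34 were positive, with a median of 0.24. Cidea, listed with both thermogenic and lipid droplet genes, stood at 0.304, 0.673, 0.359 and 2.27 CPM in sham and at 0.6301, 7.803 and 3.35 CPM at day 7. It lay above the sham range in mice 2 and 3 at low levels. Of the 13 thermogenic genes tested, 10 had positive and 3 had negative log2 differences, among the latter Kcnk3 (-0.32, SE 0.463). Ucp1 of that list had no counts per library and was not tested.

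Mouse 1 carried high levels of many stress, early response and acute phase transcripts, and mice 2 and 3 did not. Relative to all 6 other sham and day 7 libraries, and among 11285 genes with a mean of at least 5 CPM, 418 genes stood at least 1 log2 unit above in mouse 1 and 662 below; the counts were 41 and 55 for mouse 2 and 72 and 42 for mouse 3. Slc7a11, the cystine importer induced by amino acid stress, stood at 0.911, 1.398, 0 and 0.361 CPM in sham libraries 1 to 4 and at 154, 0.926 and 1.12 CPM in day 7 libraries 1 to 3. Gdf15, a stress hormone that lowers appetite, stood at 0.684, 1.35, 0 and 0.774 CPM in sham and at 82.2, 0.727 and 2.69 CPM at day 7. Fgf21, a metabolic stress hormone, stood at 0, 0, 0 and 0 CPM in sham and at 14.2, 0 and 0.591 CPM at day 7. In all 3 genes mouse 1 was alone at the high level. Over the 28 genes of the integrated stress and unfolded protein responses, 25 had positive and 3 had negative log2 differences, with a median of 0.51, and the scores were 1.19, 0.076 and 0.13 in day 7 libraries 1 to 3, against -0.15 to 0.27 in sham. The transcription factor gene Atf4 stood at 158, 114, 151 and 115 CPM in sham and at 630.1, 109 and 116 CPM at day 7. Its target Trib3 stood at 0, 6.78, 6.52 and 3.61 CPM in sham and at 99.1, 4.83 and 7.81 CPM at day 7. The ER chaperone gene Hspa5 stood at 644, 765, 354 and 359.95 CPM in sham and at 2070.3, 597 and 603 CPM at day 7. At least 1 log2 unit above sham lay 11 of the 28 in mouse 1, 0 in mouse 2 and 1 in mouse 3. Over all genes tested these shares were 5.23%, 1.76% and 1.75%.

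Immediate early genes had scores of 2.27, -0.15 and -0.19 in day 7 libraries 1 to 3, against -0.58 to 1.18 in sham. At least 1 log2 unit above the sham range lay 13 of 22 in mouse 1 and 0 in the others. For all genes tested the shares were 5.23%, 1.76% and 1.75% in mice 1 to 3. Among them Egr1 stood at 187, 18.7, 57.9 and 54.2 CPM in sham and at 642, 87.9 and 23.4 CPM at day 7. Junb stood at 98.7, 41.7, 26.2 and 21.001 CPM in sham and at 324, 43.4 and 40.1 CPM at day 7; sham library 1 was the highest sham library in both. Acute phase and IL-6 genes scored 1.52, -0.088 and -0.33 in day 7 libraries 1 to 3, against -0.52 to 0.64 in sham. The serum amyloid gene Saa1 stood at 31.3, 38.7, 0.658 and 19.04 CPM in sham and at 512, 21.03 and 1.25 CPM at day 7. Stat3 stood at 170.4, 232, 205 and 154 CPM in sham and at 617, 199 and 204 CPM at day 7; Saa1 and Saa2 are near-identical, so the split of their reads is uncertain. Il6 itself was low everywhere, at 2.81, 0.207, 0.658 and 0 CPM in sham and at 10.1, 0.331 and 0 CPM at day 7. Mouse 1 was the highest library in each of these. Hp of the acute phase list went the other way, with mouse 1 the lowest of the day 7 mice. It stood at 12083, 13148.5, 4391 and 2467 CPM in sham and at 3495, 5237 and 4597 CPM at day 7. Before scaling, the list summed to 13302, 12070 and 10707 CPM in day 7 libraries 1 to 3, against 9412 to 27176.5 CPM in sham. Lcn2, the siderophore-binding lipocalin gene, stood at 504, 441, 36.9 and 20.3 CPM in sham and at 832, 77.6 and 39.4 CPM at day 7. Ccl2, the monocyte chemokine gene, stood at 97.3, 23.9, 5.45 and 4.02 CPM in sham and at 151, 4.69 and 88.2 CPM at day 7. Sham libraries 1 and 2 were high in Lcn2, and the log2 differences of Lcn2, Ccl2 and Il6 were 0.34 (SE 1.17), 1.31 (SE 1.41) and 1.90 (SE 1.54), with edgeR adjusted p of 0.982, 0.917 and 0.881. Without mouse 1 those of Lcn2 and Il6 were -2.05 and -2.38. Glucocorticoid response genes scored 1.38, 0.013 and 0.30 in day 7 libraries 1 to 3, against -0.68 to 0.61 in sham. Fkbp5, a co-chaperone of the receptor, was highest in mouse 3, at 126, 197, 209 and 66.4 CPM in sham and at 273, 153 and 570.1 CPM at day 7. Cdkn1a, a cell cycle inhibitor gene, stood at 34.3, 46.6, 55.003 and 9.86 CPM in sham and at 274, 26.8 and 40.2 CPM at day 7, highest in mouse 1. Of the 22 tested, 18 had positive and 4 had negative log2 differences, with a median of 0.72.

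Other genes were also highest in mouse 1. The lipolysis and lipid droplet list as a whole was lowest in mouse 1. It scored -0.68, 0.15 and -0.21 in day 7 libraries 1 to 3, against -0.36 to 0.17 in sham. Hilpda, which inhibits the lipase encoded by Pnpla2, stood at 29.4, 18.4, 13.6 and 8.93 CPM in sham libraries 1 to 4 and at 488, 7.87 and 23.2 CPM in day 7 libraries 1 to 3. The droplet coat gene Plin2 stood at 457, 616, 369 and 300.4 CPM in sham and at 3338, 429 and 1062 CPM at day 7. Mouse 1 was the highest library in both. The antiangiogenic matrix gene Thbs1 stood at 367, 316, 192 and 126 CPM in sham and at 3331, 77.1 and 119.7 CPM at day 7. Mouse 1 was again far above the others. The metallothionein gene Mt1 stood at 799, 499, 248 and 136 CPM in sham and at 4054, 252 and 373 CPM at day 7. Mt2 stood at 641, 407, 117 and 41.4 CPM in sham and at 3982, 140.4 and 215 CPM at day 7. In both, mouse 1 exceeded every other library; Plin2 was above the sham range in mouse 3 as well. Adamts4, a proteoglycan-cleaving protease gene, stood at 6.38, 11.5, 5.03 and 1.86 CPM in sham and at 211, 5.09 and 4.003 CPM at day 7. Pappa, whose product cleaves IGF-binding proteins, stood at 2.696, 0.725, 1.08 and 1.03 CPM in sham and at 53.9, 2.31 and 0.328 CPM at day 7. Both were among the 10 largest gaps above in mouse 1, as were the placental growth factor gene Pgf (71.96 CPM in mouse 1, 0.418 to 3.23 CPM in sham) and the bradykinin receptor gene Bdkrb2 (49.8 CPM in mouse 1, 0.206 to 2.18 CPM in sham). Among the 10 largest gaps below in mouse 1 were Irs3, Lgals12 and Ciita. Irs3, an insulin receptor substrate gene of rodent fat, stood at 32.1, 83.7, 72.2 and 98.9 CPM in sham and at 0.126, 57.7 and 31.4 CPM at day 7. Lgals12, an adipocyte galectin gene, stood at 151, 163, 245 and 293 CPM in sham and at 2.71, 271 and 144 CPM at day 7. Ciita, the activator of MHC class II genes, stood at 11.3, 2.74, 4.55 and 13.6 CPM in sham and at 0, 7.14 and 3.54 CPM at day 7. Haemoglobin transcripts were highest in mouse 1, with Hbb-bs at 840.4, 1874, 595 and 1242 CPM in sham and at 5134, 1608 and 1471 CPM at day 7. The red blood cell scores were 2.19, 0.72 and 0.77 in day 7 libraries 1 to 3, against -0.80 to 0.85 in sham. In that list 9 of 9 tested genes were positive (median 1.32). The summed level of that list before scaling was 2475, 4795, 1528 and 3065 CPM in sham libraries 1 to 4 and 13825, 3988 and 3999 CPM in day 7 libraries 1 to 3; its part in the other results of mouse 1 was not tested.

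**Figure D4:**
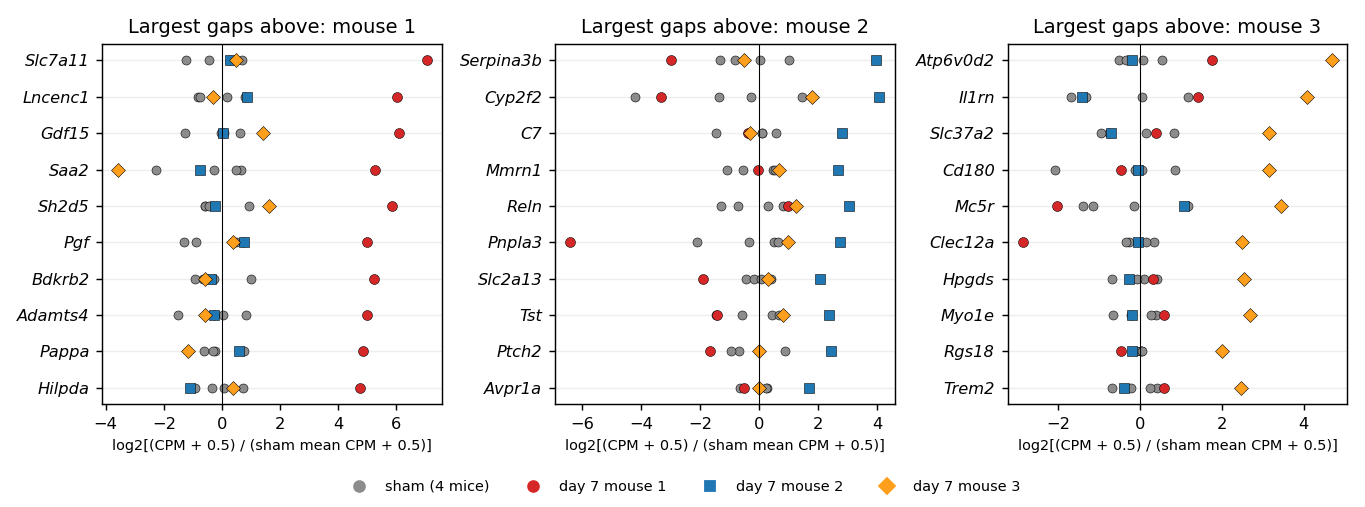
Level of the 10 genes with the largest gap above all other sham and day 7 libraries, for each day 7 mouse in turn, as log2 of (CPM + 0.5) over the sham mean plus 0.5; grey points are sham libraries and coloured points day 7 libraries. In the panel of mouse 1, Slc7a11 stands at 154 CPM where every other library holds at most 1.40 CPM.

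Mouse 3 carried macrophage and lysosome transcripts. Gpnmb, a glycoprotein of lipid-laden macrophages, stood at 28.7, 49.5, 75.8 and 68.7 CPM in sham libraries 1 to 4 and at 291, 57.7 and 788 CPM in day 7 libraries 1 to 3. It was highest in mouse 3, high in mouse 1 and inside the sham range in mouse 2 (log2 difference 2.77, SE 0.7196, edgeR adjusted p 0.564). Trem2, the lipid-sensing receptor gene of these cells, stood at 42.6, 37.8, 27.1 and 19.5 CPM in sham and at 47.9, 24.1 and 179 CPM at day 7. Atp6v0d2, a lysosomal proton pump subunit gene, stood at 6.304, 2.797, 3.17 and 4.44 CPM in sham and at 15.3, 3.57 and 120.4 CPM at day 7. The elastase gene Mmp12 stood at 2.89, 5.59, 11.6 and 13.5 CPM in sham and at 16.8, 51.9 and 171 CPM at day 7, above sham in all 3 mice (log2 difference 3.26, SE 1.11). Of 19 lipid-associated macrophage genes tested, 17 had positive and 2 had negative log2 differences, with a median of 1.31. At an unadjusted p under 0.05, 8 were higher and 0 lower, beside 3.51% and 2.75% of all genes tested. The scores were 1.23, -0.32 and 1.84 in day 7 libraries 1 to 3, against -0.31 to 0.49 in sham. Lysosome genes, some of which are shared with that list, had 30 of 33 positive (median 0.37). Their scores were 0.56, -0.23 and 0.79 in day 7 libraries 1 to 3, against -0.12 to 0.15 in sham. The acid lipase gene Lipa stood at 143, 168, 109.5 and 108 CPM in sham and at 363, 108 and 594 CPM at day 7. Cathepsin K, Ctsk, stood at 21.7, 19.1, 20.8 and 24.1 CPM in sham and at 122, 27.97 and 60.7 CPM at day 7; Lipa was high in mice 1 and 3, Ctsk above sham in every mouse (log2 difference 1.71, SE 0.455). Resident macrophage genes separated mice 1 and 3: their scores were -1.18, -0.34 and 1.18 in day 7 libraries 1 to 3, against -0.37 to 0.54 in sham. The pan-macrophage gene Adgre1 stood at 48.04, 128, 31.7 and 48.6 CPM in sham and at 50.3, 36.9 and 206 CPM at day 7. The complement gene C1qa stood at 214, 314, 167 and 177 CPM in sham and at 55.01, 161 and 409 CPM at day 7. Both were highest in mouse 3, and C1qa was below the sham range in mouse 1 and just under it in mouse 2.

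Further genes stood apart in mouse 3. Il1rn, the antagonist of the IL-1 receptor, stood at 16.1, 7.15, 2.45 and 1.81 CPM in sham and at 19.3, 2.25 and 124 CPM at day 7. Slc37a2, a macrophage sugar-phosphate exchanger gene, stood at 32.7, 20.2, 10.7 and 9.24 CPM in sham and at 24.1, 11.04 and 165 CPM at day 7. Myo1e, a class I myosin gene, stood at 19.03, 17.3, 8.92 and 12.3 CPM in sham and at 22.1, 12.4 and 95.6 CPM at day 7. Mouse 3 was above every other library in all 3. Low in mouse 3 alone was Pttg1, which encodes securin, the guard of sister chromatids, at 32.4, 31.2, 28.5 and 37.5 CPM in sham libraries 1 to 4 and at 28.6, 29.9 and 6.56 CPM in day 7 libraries 1 to 3. Mice 1 and 2 lay at the bottom of the sham range; the log2 difference was -0.58 (SE 0.4203), with an edgeR adjusted p of 0.879. Mki67, the proliferation marker, stood at 191, 58.7, 6.105 and 12.3 CPM in sham and at 6.99, 5.55 and 77.4 CPM at day 7, with mouse 3 above 3 of the 4 sham mice. The cell cycle scores were -1.34, -1.96 and 0.84 in day 7 libraries 1 to 3, within the sham range of -1.75 to 2.15 in mice 1 and 3 and below it in mouse 2, and 36 of 38 members had negative log2 differences (median -1.04). Sham library 1 had the highest score, and the median was 0.044 without it and 0.16 with voom, both of the other sign. Angptl4, an inhibitor of lipoprotein lipase, stood at 497, 535, 459 and 431 CPM in sham and at 773, 373 and 140.3 CPM at day 7, above the sham range in mouse 1 and below it in mice 2 and 3.

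Mouse 2 alone had 189 genes above and 216 below the sham range by 1 log2 unit, against 151 and 204 for mouse 3 alone. Cyp2f2, a cytochrome P450 gene, stood at 3.87, 0.104, 8.86 and 29.9 CPM in sham and at 0.6301, 189 and 38.1 CPM at day 7. Serpina3b stood at 3.27, 4.92, 18.4 and 9.13 CPM in sham and at 0.693, 145 and 6.104 CPM at day 7. The complement gene C7 stood at 10.8, 32.8, 45.01 and 32.5 CPM in sham and at 23.2, 217 and 24.3 CPM at day 7. Mouse 2 was highest in all 3, and mouse 3 was above the sham range in Cyp2f2. Mmrn1, a gene of endothelium and platelets, stood at 4.79, 10.4, 10.8 and 3.15 CPM in sham and at 7.12, 49.8 and 12.1 CPM at day 7. Reln, which encodes the matrix protein reelin, stood at 1.97, 4.56, 6.64 and 1.19 CPM in sham and at 7.499, 33.5 and 9.19 CPM at day 7. Both had gaps among the largest in mouse 2. Reln lay above sham in all 3 mice (log2 difference 2.22, SE 0.704, edgeR adjusted p 0.687). Thbs2, a matricellular gene, was low in mouse 2 at 79.9, 151, 193 and 108 CPM in sham and at 395, 15.4 and 125 CPM at day 7 and high in mouse 1. Pericyte and smooth muscle genes scored -1.28, 1.13 and 0.094 in day 7 libraries 1 to 3, against -0.72 to 0.76 in sham, with Acta2 at 89.5, 110.1, 185 and 49.1 CPM in sham and at 13.99, 179 and 56.2 CPM at day 7. Endothelial genes scored 0.40, 0.26 and -0.33 in day 7 libraries 1 to 3, against -0.32 to 0.50 in sham.

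**Figure D5:**
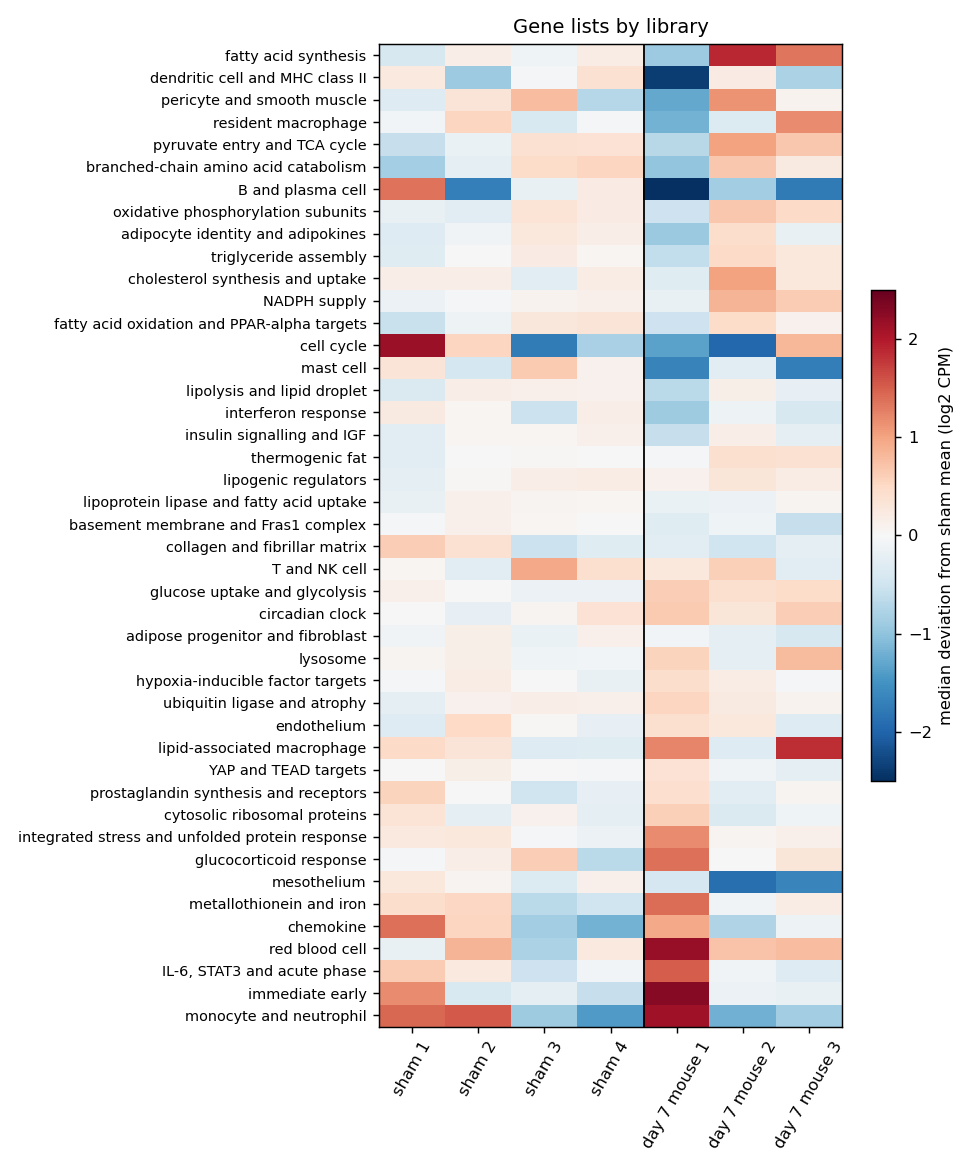
Median deviation from the sham mean, in log2 CPM, of the genes of each list (rows) in each library (columns); red is above and blue below the sham mean. Fatty acid synthesis is low in mouse 1 and high in mice 2 and 3, and the mesothelium is lowest in mice 2 and 3.

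The B cell, antigen-presenting and mast cell list scores were lower in mice 1 and 3 than in mouse 2, while single members differed. MHC class II and dendritic cell genes scored -2.38, 0.21 and -0.79 in day 7 libraries 1 to 3, against -0.91 to 0.38 in sham, with Cd74, the invariant chain, at 284, 131, 399 and 527 CPM in sham and at 50.7, 394 and 169 CPM at day 7. Irf8, a transcription factor gene of the same list, stood at 32.5, 21.4, 9.397 and 16.7 CPM in sham and at 42.2, 15.6 and 60.2 CPM at day 7, with mouse 2 the lowest of the day 7 mice. Of 17 tested, 3 had positive and 14 had negative log2 differences, with a median of -0.61. Among B and plasma cell genes, of which 12 were tested, 3 had positive and 9 had negative log2 differences, with a median of -2.29. Their scores were -2.58, -0.88 and -1.77 in day 7 libraries 1 to 3, against -1.71 to 1.36 in sham. Mouse 2 lay inside that range and mouse 3 just under it. Ms4a1, which encodes CD20, stood at 5.05, 0.414, 3.47 and 1.496 CPM in sham and at 0.252, 0.331 and 0.131 CPM at day 7, below sham in all 3 mice at levels of few counts. The immunoglobulin gene Ighm stood at 137, 15.6, 115 and 151 CPM in sham and at 2.84, 335 and 53.9 CPM at day 7, highest of all in mouse 2. The mast cell protease gene Cpa3 stood at 13.9, 5.904, 25.1 and 17.96 CPM in sham and at 4.66, 11.8 and 4.397 CPM at day 7. The protease gene Cma1 stood at 23.3, 3.78, 25.6 and 21.8 CPM in sham and at 1.32, 12.5 and 6.17 CPM at day 7. Of the mast cell genes, 9 of 11 were negative (median -1.21). The mast cell scores were -1.67, -0.26 and -1.72 in day 7 libraries 1 to 3, against -0.43 to 0.65 in sham, with mouse 2 inside that range. Hdc, the histamine-making decarboxylase gene, stood at 49.03, 28.5, 20.5 and 8.93 CPM in sham and at 49.3, 5.62 and 5.51 CPM at day 7, and in it and in the receptor gene Kit mouse 1 was above mouse 2. The summed levels were also higher in mouse 1 than in mouse 2, at 107 and 92.8 CPM for the mast cell list and 937 and 747 CPM for the B and plasma cell list. T and NK cell genes, 13 of them tested, had 8 positive and 5 negative log2 differences (median 0.054). Neutrophil and monocyte genes were high in mouse 1 and in sham libraries 1 and 2. S100a8 stood at 69.5, 57.4, 8.68 and 0.3096 CPM in sham and at 199, 2.91 and 4.46 CPM at day 7. The list's scores were 2.11, -1.20 and -0.86 in day 7 libraries 1 to 3, against -1.42 to 1.54 in sham.

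Most interferon response genes had negative log2 differences, while the scores, -0.90, -0.12 and -0.40 in day 7 libraries 1 to 3, lay below the sham range of -0.53 to 0.22 in mouse 1 and within it in mice 2 and 3. Of 29 tested, 5 had positive and 24 had negative log2 differences, with a median of -0.37. At an unadjusted p under 0.05, 4 were lower and 0 higher, beside 2.75% and 3.51% of all genes tested. Those 4 lay below every sham library in all 3 mice, a pattern of 4.07% of all genes tested. Among these, Oasl2 of the antiviral synthetase family stood at 94.6, 77.2, 71.5 and 82.8 CPM in sham libraries 1 to 4 and at 59.8, 32.9 and 30.5 CPM in day 7 libraries 1 to 3. Oas2 stood at 30.8, 31.5, 19.9 and 26.3 CPM in sham and at 6.05, 14.5 and 8.53 CPM at day 7. Oas3 stood at 12.8, 7.92, 4.13 and 5.16 CPM in sham and at 3.78, 2.84 and 3.61 CPM at day 7. The chemokine gene Cxcl9 completed them, with 18.2 to 35.1 CPM in sham and 4.35 to 14.7 CPM at day 7. Their log2 differences were -0.99 (SE 0.249), -1.48 (SE 0.473), -1.14 (SE 0.451) and -1.53 (SE 0.579), with edgeR adjusted p of 0.564 to 0.768. Of 22 chemokine genes, 2 were higher and 5 lower at an unadjusted p under 0.05, beside 3.51% and 2.75% of all genes tested. The eosinophil chemokine gene Ccl11 stood at 61.5, 42.98, 48.8 and 41.9 CPM in sham and at 21.5, 28.96 and 23.7 CPM at day 7. The B cell chemokine gene Cxcl13 stood at 50.8, 43.97, 4.25 and 8.101 CPM in sham and at 5.23, 1.45 and 2.82 CPM at day 7. Ccl11 lay below sham in every mouse (log2 difference -0.98, SE 0.299), and Cxcl13 overlapped sham through mouse 1 (log2 difference -3.08, SE 1.01; sham libraries 1 and 2 were the high ones).

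Matrix, progenitor, clock and YAP target lists were read as well. Collagen and fibrillar matrix genes numbered 31, of which 10 had positive and 21 had negative log2 differences, with a median of -0.38. Their scores were -0.28, -0.50 and -0.24 in day 7 libraries 1 to 3, all inside the sham range of -0.53 to 0.61. Sham libraries 1 and 2 had the high scores, 0.61 and 0.38. The prolyl hydroxylase gene P4ha1 stood at 77.9, 108, 80.4 and 61.1 CPM in sham and at 49.8, 53.4 and 47.6 CPM at day 7. It was the member that lay below sham in all 3 mice. Progenitor and fibroblast genes had 15 of 20 negative (median -0.41), with Dpp4, a marker of early progenitors, at 42.7, 92.3, 90.1 and 128 CPM in sham and at 48.4, 19.04 and 39.6 CPM at day 7 (log2 difference -1.31, SE 0.379). Dpt stood at 178, 219, 165 and 254 CPM in sham and at 69.6, 156 and 122 CPM at day 7 (-0.82, SE 0.317). The progenitor and fibroblast scores were -0.078, -0.22 and -0.40 in day 7 libraries 1 to 3, against -0.17 to 0.15 in sham. Mouse 1 lay inside that range. Of 19 clock genes, 17 had positive and 2 had negative log2 differences, with a median of 0.42; Bhlhe40, a repressor in the clock loop, stood at 47.3, 23.4, 16.8 and 29.98 CPM in sham and at 123, 51.97 and 83.2 CPM at day 7, above sham in all 3 mice (log2 difference 1.55, SE 0.522). The output gene Dbp stood at 88.2, 12.999, 14.7 and 53.4 CPM in sham and at 8.51, 56.4 and 77.3 CPM at day 7, low in mouse 1. The clock scores were 0.66, 0.29 and 0.62 in day 7 libraries 1 to 3, against -0.21 to 0.37 in sham. Mouse 2 lay inside that range. YAP and TEAD targets, read because the series title concerns hepatic Yap1, had 12 positive and 14 negative members (median -0.04). Ccn2, a common reporter of YAP activity, stood at 20.9, 20.5, 49.1 and 4.49 CPM in sham and at 118, 90.1 and 30.1 CPM at day 7 (log2 difference 1.75, SE 0.765). It was above the sham range in mice 1 and 2, while Amotl2, another target, stood at 221, 183, 120.001 and 224 CPM in sham and at 59.5, 172 and 112 CPM at day 7, below that range in mice 1 and 3. Insulin and IGF pathway genes were balanced (12 positive, 13 negative), and Igfbp4, an IGF-binding protein gene, lay below sham in all 3 mice at 1028, 969.6, 1217 and 1398 CPM in sham and at 276, 919.6 and 896 CPM at day 7. Ribosomal protein genes, read as a control, had a median of 0.066. Their scores were 0.59, -0.35 and -0.11 in day 7 libraries 1 to 3, against -0.24 to 0.34 in sham.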

How the data were processed

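RNA-seq of eWAT was deposited as 1 table of genes for all libraries. The submitters' processing notes name Partek, STAR and DESeq2 and the build mm39, without roles; versions, filters and strand-specific counting are not given in the sources used here. The design text speaks of total RNA, while a label names polyA RNA. Per the file headers, the authors deposited raw counts per gene, which are expected counts in unit (28.5% to 39.6% of the values per library were not whole), normalized counts (a signal, the raw count divided by a factor per library), and a p-value and log2 ratio per comparison. The 18086 lines of values per library stood beside the wrong gene in all but 21 cases. Lines were matched to genes by the mean and maximum that the table also gives per gene (relative tolerance 3e-05): 18070 lines fitted a single gene and 16 were placed by gene order. Group means were then within 5% of the authors' means for 100% of the genes compared, which left out genes of low group mean. The 4065 genes without such a line were not analysed here. Sample columns without a label numbered 0.

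Expected counts were rounded to whole numbers. Genes were kept by filterByExpr (minimum count 10), leaving 17012, and fitted across all 12 libraries with edgeR 4.0.16 (limma 3.58.1, R 4.3.3): TMM (trimmed mean of M-values) scaling, robust quasi-likelihood F-test, Benjamini-Hochberg adjustment over all genes, threshold 0.05. The alternatives used DESeq2 1.42.0, voom, other scalings, no filter, fewer samples and each library left out. The fit was also run on simulated counts, with the same spread for every gene and no mouse set apart. That run cannot show how the fit performs at the spread of these mice. Log2 CPM used a prior count of 2. A list's score in a library is the median, over its tested genes, of log2 CPM minus the sham mean; lists overlap in part.

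The members and the 49 gene lists were chosen with earlier results of these data known, so no list has a test. Genes were named from a list of central genes, the 15 of smallest p in each direction among genes whose groups do not overlap, up to 6 of smallest p and the 3 of widest day 7 range per list, and the 10 largest gaps per day 7 library. Named outside this rule, after their values were seen, were Acta2, Adgre1, Atf4, C1qa, Cd74, Fbxo32, G6pdx, Hspa5, Krt18, Mki67, Prdx1, Prelp, S100a8, Scd1, Slpi, Srxn1 and Wt1. A few genes are not reported here. The edgeR p-values set the difference between day 7 and sham against a spread estimated over all 12 libraries, partly shared between genes. Promoter sequences are RefSeq's (GRCm38.p6).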

Additional observations from a re-analysis of the deposited data

Results flagged for a closer look

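In 5 of the 106 sets of 4 sham values examined (the genes with a printed log2 difference and the list scores), the highest or lowest sham library lay far from the other 3 relative to the range; chance gives this in about 1 of 20 sets. Sham library 4 held 76.3 CPM of Abcc1, above the other sham mice, and the day 7 mice lay above it. Sham library 3 had the low score of cholesterol synthesis and uptake genes, -0.26. Sham library 1 had the low scores of lipolysis and lipid droplet genes (-0.36), of thermogenic fat genes (-0.27) and of ubiquitin ligase and atrophy genes (-0.23). The 3 day 7 libraries are too few for this comparison.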

How the results depend on the processing

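The count of genes called by edgeR stayed at 0 with relative log expression size factors, without the filter on low counts, with the sham and day 7 libraries alone and without robust dispersion, at 939 to 1092 genes with an unadjusted p under 0.05. DESeq2 called 70 genes and voom 15, of which 12 were shared; of the 70, 27 lay above and 32 below sham in all 3 mice and 11 overlapped sham. The cause of the difference between tools was not tested. With 1 library left out, edgeR called 0 to 3 genes, and the 3 (Acly, Ppl and Upk3b) came without day 7 mouse 1; leaving out sham library 4 and day 3 library 1 together gave 0. With the replicate number as a block, 0 genes were called and 699 had an unadjusted p under 0.05. Same-numbered deviations of sham and day 7 libraries correlated at 0.187, -0.247 and -0.102, and other pairs at -0.305 to 0.330. With deviations taken within groups of 4 and 3 mice, these few values cannot decide whether the numbers pair the mice.

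Genes whose groups do not overlap numbered 268 above and 1067 below when scaled by total count, which set the median of all genes at -0.093 against 0.0020 with TMM, and 703 to 1576 above and 905 to 1561 below with 1 library left out. With no margin, genes above the sham range numbered 4944, 3237 and 3463 in mice 1 to 3 and genes below it 4981, 3386 and 3143. With a margin of 2 log2 units they were 202, 61 and 54 above and 489, 83 and 85 below, so mouse 1 had the most at each margin. Without sham library 4, mouse 2 had 504 genes above.

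Of 1160 log2 differences of 58 named genes under 20 alternatives, 14 changed sign, in 5 genes. With 1 library left out, the lowest and highest values were -0.76 and 0.23 for Cebpa, -2.38 and 3.56 for Il6, -2.05 and 0.93 for Lcn2, -1.61 and 0.043 for Msln, and -0.30 and 0.30 for Pparg; without mouse 1 Cebpa and Pparg were positive, and Il6 and Lcn2 negative. With voom, Il6 was -0.88, Lcn2 -0.46 and Pparg 0.054. Lcn2 was -0.22 with the block, and Lcn2 and Pparg were -0.046 and 0.087 without sham library 4 and day 3 library 1 together. Of the 48 lists with a tested gene, 12 had a median of the other sign without mouse 1, among them adipocyte identity, acute phase, immediate early and chemokine genes, and 8 without mouse 2, among them triglyceride assembly and YAP targets; the cell cycle median was positive without sham library 1 and with voom. Triglyceride assembly, prostaglandin, chemokine, ribosomal protein and pericyte medians, on mean log2 CPM, had the other sign when scaled by total count, an alternative chosen after seeing the data. The number of mice, 4 and 3, and low counts limit the precision of each value.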
